A study of Mus musculus with 4 samples.

Results

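The genes described here encode enzymes, and direct partners of enzymes, that add or remove chemical groups on histones and on DNA, and that lie on autosomes. They were chosen by gene symbol alone: lysine demethylases (Kdm), histone deacetylases (Hdac), sirtuins (Sirt), SET domain genes (Setd), DNA methyltransferases (Dnmt), the TET dioxygenases Tet1, Tet2 and Tet3, and the Polycomb genes Ezh1, Ezh2, Eed, Suz12 and Jarid2. This rule found 51 of the 21827 gene entries, with 50 distinct symbols because Hdac4 has a pair of entries; 5 further entries with such symbols lie on X or Y and were left out. The mice were of the outbred CD-1 stock, untreated and 8 weeks old. The groups were male liver and female liver, each with 12 livers combined into 2 pools of 6, and each of the 4 pools gave 1 poly-A-enriched, strand-specific RNA library. The deposited table joins both pools of a sex, so each gene has 1 level per sex and no spread between pools can be given. Levels are the authors' log2 RPKM (reads scaled to transcript length and to sequencing depth), which can be ordered between genes. Folds and adjusted p-values are the authors' own, and a gene is called different at an adjusted p under 0.05.

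Histone tails carry methyl and acetyl groups that help to set how readily a gene is transcribed. Methyltransferases with a SET domain write methyl groups, Kdm enzymes erase them, and Hdac enzymes and several sirtuins remove acetyl groups. Polycomb repressive complex PRC2 (Ezh1 or Ezh2 with Eed and Suz12, and Jarid2 as an accessory subunit) writes a repressive methyl mark, and Dnmt and TET enzymes add and oxidise methyl groups on cytosines of CpG dinucleotides. In liver, growth hormone is released in a different pattern in males and females and is known to drive many sex differences in transcription. The symbols cover more than histones: Sirt3, Sirt4 and Sirt5 are mitochondrial, Setd3 methylates actin, and Setd6 methylates a subunit of NF-kappaB.

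Of the 51 entries, 50 could be compared and 7 were called by the authors' deposited table, against 17.4% of all 13763 compared genes. The members' share of 14.0% lies near that background. Setdb2, Setd6, Sirt4 and Dnmt1 were higher in male liver (4 of 50, background 7.21%), and Setd4, Dnmt3b and Tet2 were higher in female liver (3 of 50, background 10.2%). Each called member reached a log2 RPKM of 1 or more in male or female liver, the authors' limit for liver-expressed genes. By that limit 43 members were expressed, and 7 of these were called (16.3%), against 17.2% of liver-expressed genes. At an adjusted p under 0.01, the background was 10.2% and the called members were Setd4, Dnmt3b and Setdb2. With a fold of at least 1.5 added to the adjusted p under 0.05, 5 members remained against 13.4% of all compared genes, and Setd6 (1.48-fold) and Tet2 (1.38-fold) by the authors' deposited table dropped out.

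The members' median log2 ratio, male over female, was 0.02, beside -0.02 over all compared genes. Without regard to direction the median difference was 0.21 on the log2 scale, beside 0.27 over all compared genes; over liver-expressed ones it was 0.21 for the members and 0.20 for all genes. The widest ratio was that of Setd4, 2.48-fold higher in female liver by the authors' deposited table. It was the single member beyond 2-fold, 2.33% of the liver-expressed members, beside 4.90% of all liver-expressed genes. Close to the threshold, Setd1b (adjusted p = 0.0503), Kdm5b (0.0568) and Hdac10 (0.0713) lay just outside it by the authors' deposited table, and Setd6 (0.0313) and Tet2 (0.0241) just inside it.

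**Figure D1:**
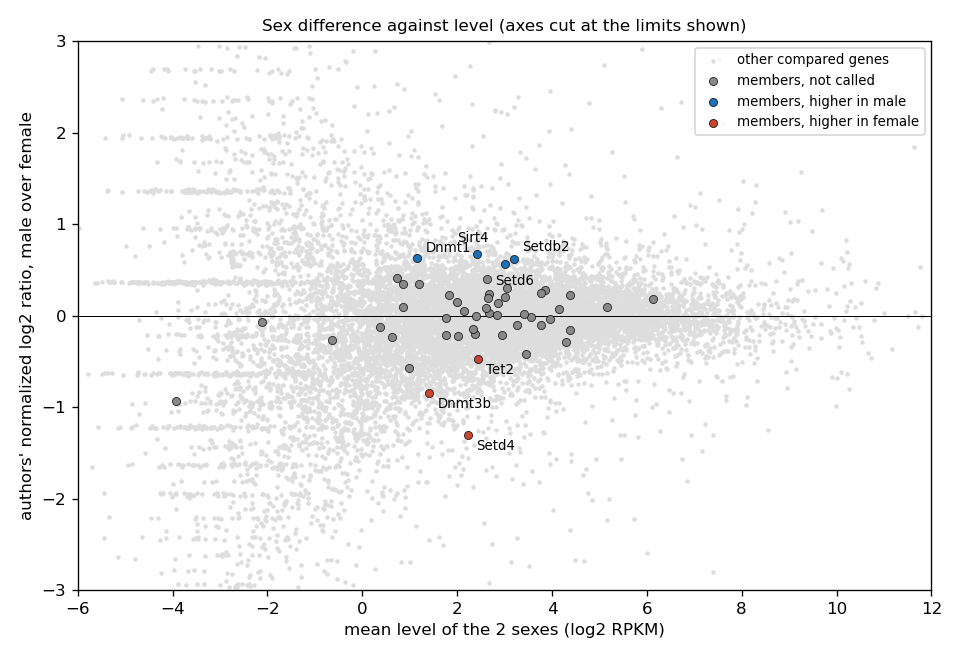
Normalized log2 ratio of male to female liver as the authors give it (vertical axis) against the mean log2 RPKM of both sexes (horizontal axis), 1 point per gene; grey points are the other compared genes and outlined points the members. The 4 blue members lie above 0 and the 3 red ones below, with Setd4 lowest of the called members, and the uncalled members lie within the cloud of all genes.

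How large a difference had to be for a call can be read from all genes of like level. Among 8339 compared genes whose higher level lay between 1.0 and 5.5 on the log2 RPKM scale, none of the 5042 with a fold under 1.2 was called. The share called was 10.1% between 1.2-fold and 1.4-fold, 65.8% between 1.4-fold and 1.6-fold, and 84.6% between 1.6-fold and 2.0-fold. In the same window lay 42 members, of which 27 differed by less than 1.2-fold (64.3%, against 60.5% of all genes there). Between 1.2-fold and 1.4-fold 1 of 8 members was called, and between 1.4-fold and 1.6-fold 4 of 5. The 5 members between 1.4-fold and 1.6-fold were Dnmt1, Setdb2, Setd6 and Hdac10, the last of them not called, and Sirt4 at just under 1.6-fold.

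DNA-modifying enzymes held 3 of the 7 calls among 6 compared genes, and the other members 4 among 44 (9.09%), beside 17.4% of all compared genes. The difference between these groups was not tested, and 6 genes give a coarse share. Dnmt1, which copies methylation to the new strand after replication (chromosome 9, 20711650 to 20757317, mm9), had a log2 RPKM of 1.51 in male and 0.80 in female liver. It was 1.55-fold higher in male liver by the authors' deposited table (adjusted p = 0.0194). Dnmt3b, which methylates DNA de novo (chromosome 2, 153475190 to 153513466, mm9), had the opposite order, with 0.99 in male and 1.84 in female liver. The authors' deposited table gives a 1.80-fold higher level in female liver (adjusted p = 0.00164). Reads implied by the levels were 94 for male and 224 for female liver, and counting error alone allows a female over male ratio between 1.42 and 2.34 (exact 95% interval). Dnmt3a, the other de novo enzyme, lay highest of the 3 in male liver at 1.94 and at 1.72 in female liver, and its 1.17-fold difference by the authors' deposited table was not called (adjusted p = 0.281). In male liver the order was thus Dnmt3a, Dnmt1, Dnmt3b, and in female liver Dnmt3b, Dnmt3a, Dnmt1, without an error to separate neighbours in that order. Dnmt3l, a cofactor without enzyme activity that is known from germ cells, had the floor value in male and in female liver, which stands for no reads, and was the member that could not be compared.

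Of the TET genes, which oxidise methylcytosine, Tet2 (chromosome 3, 133126641 to 133207354, mm9) had a log2 RPKM of 2.20 in male and 2.68 in female liver, the highest of the family in both sexes. It was 1.38-fold higher in female liver by the authors' deposited table (adjusted p = 0.0241), and on 472 male and 867 female implied reads counting error alone allows a ratio between 1.25 and 1.57 (exact 95% interval). Tet3 lay at 1.67 and 1.88, a 1.16-fold difference that was not called by the authors' deposited table (adjusted p = 0.334). Tet1 was near the floor, at -4.31 in male and -3.53 in female liver, with 7 implied male and 17 implied female reads, and its 1.92-fold difference by the authors' deposited table had an adjusted p of 0.231. All 3 ratios were below 0, and the call was made for Tet2 alone. Whether Tet2 differs from Tet3 in its response was not tested.

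SET domain genes held 3 calls among 10, beside 17.4% of all compared genes. Setd4 (chromosome 16, 93583702 to 93603972, mm9), a little-studied putative methyltransferase gene, had a log2 RPKM of 1.60 in male and 2.87 in female liver. Its 2.48-fold higher level in female liver carried the lowest adjusted p of all members by the authors' deposited table (7.19e-07). The next gene, Cbr1, which encodes a carbonyl reductase, starts 4.11 kb away on the opposite strand and points away from Setd4. Cbr1 had a log2 RPKM of 4.87 in male and 6.17 in female liver, and was 2.47-fold higher in female liver by the authors' deposited table (adjusted p = 5.52e-10). The normalized log2 ratios of the pair were -1.31 and -1.30.

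Setdb2, which belongs with Setdb1 to a family that writes a repressive mark on histone H3 (chromosome 14, 60020846 to 60059576, mm9), had a log2 RPKM of 3.54 in male and 2.87 in female liver. It was 1.53-fold higher in male liver by the authors' deposited table (adjusted p = 0.00588). Cab39l starts 0.241 kb away in the opposite direction, at 5.17 in male and 5.25 in female liver, and was not called by the authors' deposited table (1.08-fold, adjusted p = 0.586). Close head-to-head neighbours thus had ratios of unlike sign at Setdb2 and of like size at Setd4, and neither difference between neighbours was tested. Setdb1 itself lay at 2.65 and 2.55 and differed by 1.06-fold by the authors' deposited table (adjusted p = 0.713). It overlaps Lass2, a more abundant gene on the other strand, and the sources used here do not say whether the reads were counted by strand; Sirt3, Hdac7 and Setd7 likewise overlap compared genes on the other strand.

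Setd6 (chromosome 8, 98239813 to 98242904, mm9) had a log2 RPKM of 3.35 in male and 2.68 in female liver, on 195 and 160 implied reads, from an entry over 52.6% of the gene's RefSeq span. In the authors' deposited table it was 1.48-fold higher in male liver (adjusted p = 0.0313), and counting error alone allows 1.29-fold to 1.98-fold (exact 95% interval). Cnot1, 0.446 kb away on the other strand, was 1.26-fold higher in male liver without a call by the authors' deposited table (adjusted p = 0.0821). The other 7 SET domain genes were not called. Setd5 was the most abundant of the family, at 5.21 in male and 5.12 in female liver (1.06-fold, adjusted p = 0.65 by the authors' deposited table). Its entry covers 39.6% of the gene's RefSeq span, so the level describes that stretch. Setd3 followed at 4.02 and 3.68 (1.21-fold, adjusted p = 0.193 by the authors' deposited table). Setd1b, the catalytic subunit of a complex that writes an active promoter mark, lay at 3.26 in male and 3.65 in female liver. It had more RNA in female liver (1.34-fold, adjusted p = 0.0503 by the authors' deposited table), from an entry that covers 29.3% of the gene's RefSeq span. Setd7 lay lowest in female liver at 1.02 and at 1.36 in male liver, a 1.27-fold difference with an adjusted p of 0.136 by the authors' deposited table. Setd2, the main writer of a mark over transcribed gene bodies, differed by 1.07-fold and Setd8 by 1.01-fold by the authors' deposited table.

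Promoter sequence is shown for the 6 called members that have a single start in the RefSeq promoter table (GRCm38.p6), because CpG dinucleotides are the substrate of the Dnmt and TET enzymes described here. Each line gives the 60 bases before the transcription start, on the strand of the gene, with CpG dinucleotides in capitals. Dnmt1 has 3 starts in that table and is left out.
Setd4 (chr16:93603816-93603875, minus strand): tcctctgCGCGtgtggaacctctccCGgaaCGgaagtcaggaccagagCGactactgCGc
Dnmt3b (chr2:153649389-153649448, plus strand): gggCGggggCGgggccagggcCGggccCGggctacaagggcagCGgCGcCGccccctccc
Tet2 (chr3:133544391-133544450, minus strand): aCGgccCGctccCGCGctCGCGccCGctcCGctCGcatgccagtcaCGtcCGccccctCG
Setdb2 (chr14:59440881-59440940, minus strand): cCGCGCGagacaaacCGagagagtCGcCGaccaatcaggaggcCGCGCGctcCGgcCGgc
Setd6 (chr8:95715853-95715912, plus strand): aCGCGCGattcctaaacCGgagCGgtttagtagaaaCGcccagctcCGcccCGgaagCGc
Sirt4 (chr5:115484298-115484357, minus strand): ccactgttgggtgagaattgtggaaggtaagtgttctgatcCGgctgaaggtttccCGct

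CpG number in these 60 bases ran from 2 at Sirt4 to 12 at Tet2. Over 300 bases (250 before to 50 after the start), the 39 members with a promoter in the table, at the first start listed, held a median of 23 CpG dinucleotides, beside 20 for 9724 compared genes and 7 for all 27025 promoters. Of the female-higher members, Setd4 held 29, Dnmt3b 30 and Tet2 57, and of the male-higher ones Setdb2 held 29, Setd6 28 and Sirt4 15. At Dnmt1 the number was 2, 12 or 33, depending on the start. The motif TTCNNNGAA, bound by the growth hormone responsive factor STAT5 and the same on both strands, was found in 1 of 39 member promoters, that of Setd7, against 7.08% of compared genes. The palindrome CACGTG, an E-box, was found at Hdac5 and Sirt1 (2 of 39), against 9.94% of compared genes. None of the 7 called members had either motif in its window. At shares of 7.08% and 9.94% over compared genes, 7 promoters are too few to read this as a lack. A match is no proof of binding, sites outside the 300 bases were not searched, and binding was not tested.

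Of 6 sirtuin genes, which encode NAD-dependent enzymes that remove acetyl and other acyl groups, Sirt4 was called (1 of 6, beside 17.4% of all compared genes). Sirt4 (chromosome 5, 115928019 to 115934493, mm9) had a log2 RPKM of 2.78 in male and 2.05 in female liver, on 138 and 109 implied reads, from an entry over 52.8% of the gene's RefSeq span. The authors' deposited table gives it as 1.60-fold higher in male liver (adjusted p = 0.0214), and counting error alone allows 1.28-fold to 2.15-fold (exact 95% interval). The other mitochondrial members were not called. Sirt3, the main mitochondrial deacetylase and the most abundant of all members, lay at 6.23 in male and 6.04 in female liver (1.14-fold, adjusted p = 0.346 by the authors' deposited table). Sirt5, a mitochondrial desuccinylase, lay at 2.85 and 2.83 from an entry over 50.9% of the RefSeq span, with an adjusted p of 1 by the authors' deposited table. Sirt2, mostly cytosolic, was next in level at 4.28 and 4.46 (1.11-fold, adjusted p = 0.512 by the authors' deposited table), and the nuclear Sirt1 lay at 2.95 and 2.77, neither of them called. Sirt6, also nuclear, was lowest at 1.06 and 0.67 with 43 implied reads in each sex, so its 1.27-fold difference (adjusted p = 0.484 by the authors' deposited table) has a wide counting interval of 0.838 to 2.05 (exact 95% interval). Differences between Sirt4 and the other sirtuins were not tested.

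None of the 5 PRC2 genes was called, beside 17.4% of all compared genes. Unadjusted p-values are not given in the table, and the lowest adjusted p was 0.209 (Suz12, by the authors' deposited table). The catalytic subunits were close in level to each other. Ezh1 had a log2 RPKM of 2.40 in both sexes, with a log2 ratio of 0.00 and an adjusted p of 1 by the authors' deposited table. Ezh2 lay at 2.29 in male and 2.38 in female liver (1.11-fold, adjusted p = 0.539 by the authors' deposited table). The non-catalytic core subunits were more abundant, Eed at 3.92 in male and 3.98 in female liver (1.03-fold, adjusted p = 0.884 by the authors' deposited table) and Suz12 at 3.88 and 3.66 (1.19-fold). Jarid2, which helps to bring the complex to DNA, was lowest at 1.94 and 2.11 (1.16-fold, adjusted p = 0.329 by the authors' deposited table). For Ezh1, 248 male and 325 female implied reads limit the ratio to between 0.844 and 1.18 by counting alone, and for Ezh2 151 and 212 reads limit it to between 0.752 and 1.15 (exact 95% intervals). RNA of these subunits gives no measure of the mark itself.

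None of the 13 autosomal lysine demethylase genes was called, beside 17.4% of all compared genes. The lowest adjusted p was 0.0568 (Kdm5b) by the authors' deposited table. Log2 ratios of these genes ran from -0.20 (Kdm4c) to 0.41 (Kdm2b). Of the 13 ratios 10 were above 0, beside 6481 of all 13763 compared genes, and a common direction was not tested. Kdm2a, which acts on unmethylated CpG islands, was the most abundant, at a log2 RPKM of 4.17 in male and 4.13 in female liver (1.05-fold, adjusted p = 0.71 by the authors' deposited table). Kdm1b (3.54 and 3.56) and Kdm1a (3.22 and 2.88), the flavin-dependent enzymes, came next, and differed by 1.01-fold and 1.23-fold by the authors' deposited table (adjusted p = 0.963 and 0.182). Kdm4c lay at 2.28 in male and 2.48 in female liver (1.15-fold, adjusted p = 0.407 by the authors' deposited table). Kdm5b, an eraser of an active promoter mark, lay at 2.83 in male and 2.42 in female liver and was 1.32-fold higher in male liver by the authors' deposited table without passing the threshold. Kdm2b (0.93 and 0.52) had a 1.33-fold difference with an adjusted p of 0.156 by the authors' deposited table. Kdm3a, Kdm3b, Kdm4a, Kdm4b, Kdm5a and Kdm6b had folds between 1.02 and 1.17 by the authors' deposited table, all in the male direction. Kdm4d, with 6 and 8 implied reads, was close to the floor. The Kdm4b entry covers 11.5% of the gene's RefSeq span, so its level describes that stretch.

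Related genes on the sex chromosomes are given for comparison. Kdm6a, the X-linked paralog of Kdm6b that escapes X inactivation, had a log2 RPKM of 2.40 in male and 3.14 in female liver, whereas Kdm6b lay at 2.03 and 1.97. Kdm6a was 1.75-fold higher in female liver by the authors' deposited table (adjusted p = 0.000135). X-linked Kdm5c was 1.25-fold higher in female liver and was not called by the authors' deposited table (adjusted p = 0.106). With the Y-linked paralog Uty added to Kdm6a, the sum was 19.8 RPKM in male and 8.83 RPKM in female liver. Of this, Uty gave 14.5 RPKM in male and 0.0267 RPKM in female liver, and Kdm6a 5.28 RPKM and 8.8 RPKM. With Kdm5d added to Kdm5c the sum was 15.5 RPKM in male and 13.5 RPKM in female liver. These sums are of RNA and give no measure of demethylase activity. For Kdm5a the levels were 6.84 RPKM in male and 5.95 RPKM in female liver, and for Kdm5b 7.09 RPKM and 5.34 RPKM. The X-linked deacetylase genes Hdac6 and Hdac8 had log2 ratios of 0.10 and 0.00 and were not called by the authors' deposited table (adjusted p = 0.622 and 0.948).

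None of the 10 autosomal histone deacetylase entries was called, beside 17.4% of all compared genes. The lowest adjusted p was 0.0713 (Hdac10) by the authors' deposited table. Log2 ratios ran from -0.57 to 0.23. Of the 10 ratios 8 were below 0, beside 7266 of all 13763 compared genes, and a common direction was not tested. Hdac11 was highest in male liver, at a log2 RPKM of 4.49 against 4.28 in female liver (1.17-fold, adjusted p = 0.26 by the authors' deposited table), and Hdac2 highest in female liver, at 4.45 against 4.13. Hdac2, a core subunit of several corepressor complexes, was 1.22-fold higher in female liver (adjusted p = 0.195), and its paralog Hdac1, at 1.78 and 1.74, differed by 1.02-fold by the authors' deposited table. Hdac3, the catalytic subunit of the nuclear receptor corepressor complex and a regulator of lipid metabolism in liver, lay at 3.72 and 3.83 (1.08-fold, adjusted p = 0.655 by the authors' deposited table). Hdac10 had 0.73 in male and 1.26 in female liver, a 1.49-fold difference by the authors' deposited table that rests on 44 and 84 implied reads.

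Class IIa deacetylases, which shuttle between cytoplasm and nucleus, were low except for Hdac5 (2.86 and 3.02). Hdac7 lay at 0.32 and 0.41, and Hdac9 at -0.78 and -0.50 from an entry covering 18.1% of the RefSeq span. Hdac4 has 1 entry over most of the gene (0.91 and 0.83) and a short one next to it (0.53 and 0.72), with log2 ratios of 0.10 and -0.24. No call was made for either (adjusted p = 0.686 and 0.535 by the authors' deposited table), and the signs of both ratios differ.

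**Figure D2:**
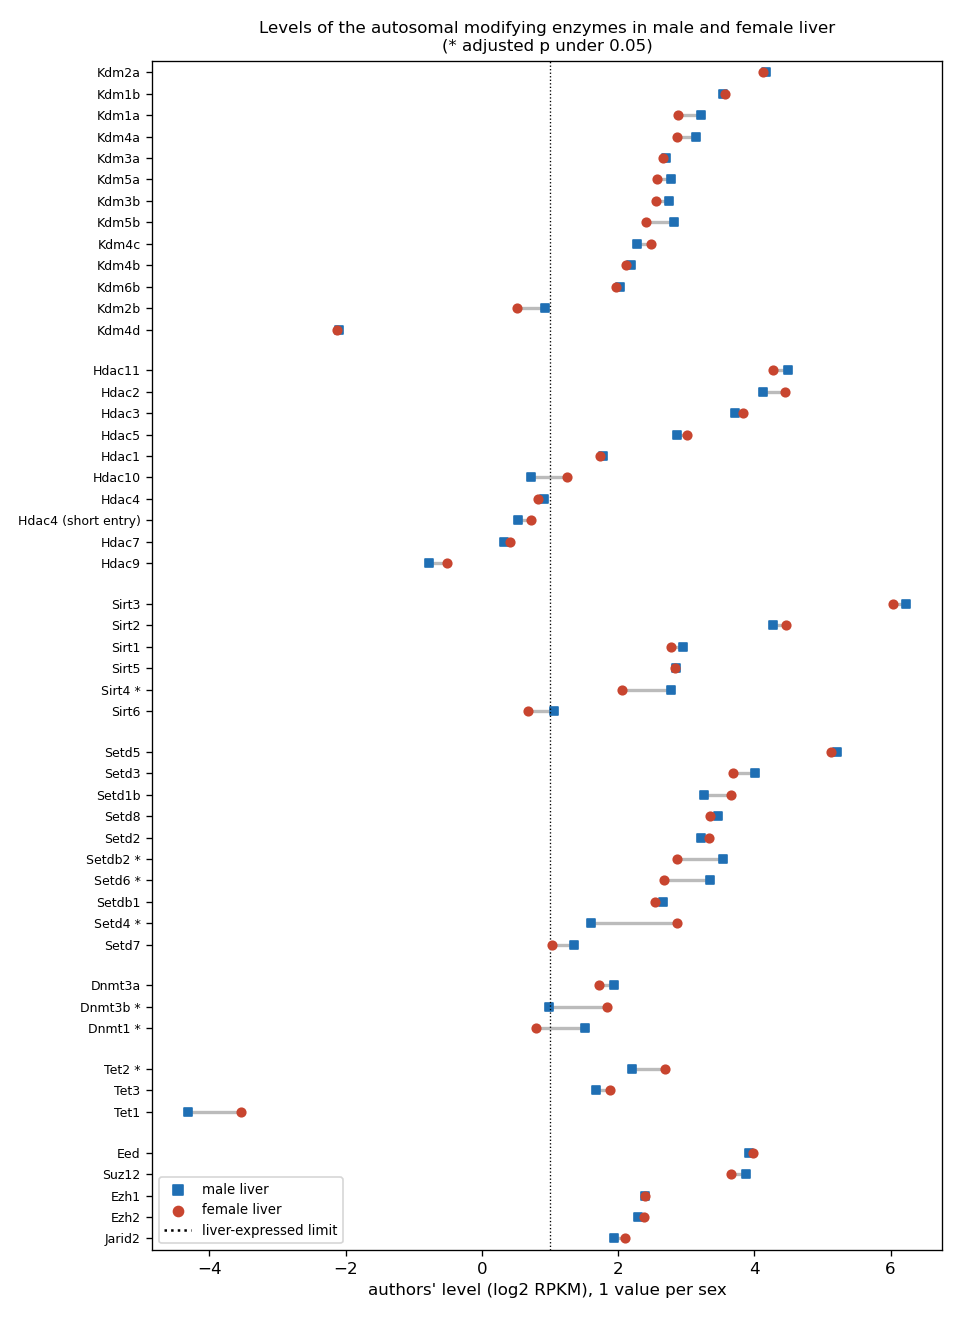
The authors' log2 RPKM of the 50 compared member entries (horizontal axis) in male (squares) and female liver (circles), 1 value per sex, ordered by family and level; the dotted line is the limit of 1 for liver-expressed genes, and a star marks an adjusted p under 0.05. Sirt3 is the most abundant and Tet1 the least, and the widest gap among expressed members is that of Setd4.

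Counting error can be set against the calls for 38 members whose transcript length is known. Their implied reads had a median of 311 in male and 391 in female liver. The counting interval left out a ratio of 1 for all 4 called members with reads, and also for 14 of 34 members without a call, 10 of them higher in male and 4 in female liver by the plain difference of levels. Their folds ran from 1.11 (Sirt2) to 1.49 (Hdac10) by the authors' deposited table, and Kdm1a, Kdm5a, Sirt3, Suz12 and Dnmt3a are among them. Some intervals barely leave out 1: the upper limit, male over female, was 0.999 for Sirt2 and Hdac10. For Kdm3b the lower limit was 1 after rounding. The intervals are scaled by implied depth and the folds by the authors' normalization, so such narrow cases could change with the scaling. These intervals hold no variation between pools or mice, which the authors' p-values can include, so they are a lower limit of the error.

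**Figure D3:**
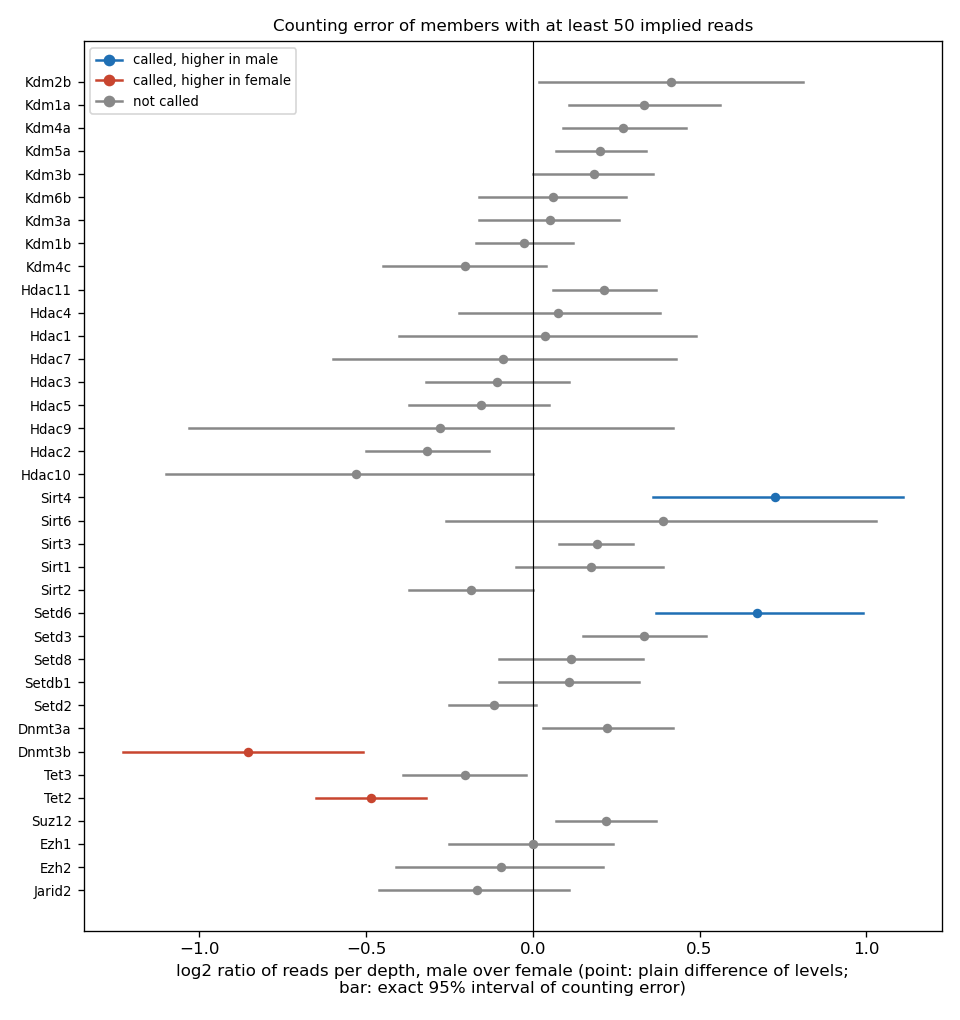
Log2 ratio of male over female reads, scaled by implied depth (horizontal axis), for members with at least 50 implied reads in all; points are plain differences of log2 RPKM and bars exact 95% intervals of counting error, coloured by the authors' call. The bars of Sirt4, Setd6, Dnmt3b and Tet2 lie clear of 0, and so do several grey bars, such as those of Kdm1a and Suz12.

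Other genes of chromatin modification were read from lists of general knowledge, and their counts stand beside 17.4% called of all compared genes. Among 20 further histone methyltransferase genes (Nsd, Mll, Ehmt, Suv39h and related genes), 6 further demethylase genes and 7 arginine methyltransferase genes none was called, and the lowest adjusted p values by the authors' deposited table were 0.0653, 0.0607 and 0.265. Of 21 partners of the deacetylases in corepressor complexes (Ncor1, Sin3a, Chd4 and others), none was called either, with a lowest adjusted p of 0.108 and a median log2 ratio of 0.12. Of 14 histone acetyltransferase genes, 2 were called in the male and 1 in the female direction (21.4% in all, near the background). Hat1, which acetylates newly made histones, was 2.22-fold higher in female liver (adjusted p = 2.76e-05), and Myst4 (1.64-fold) and the coactivator gene Ncoa2 (1.36-fold) had more RNA in male liver by the authors' deposited table. Of 26 genes of PRC1 and accessory PRC2 subunits 4 were called (15.4%, near the background). Yaf2 (1.54-fold), Cbx7 (1.49-fold) and Rbbp4 (1.30-fold) had more RNA in male liver and Phc1 (2.09-fold) in female liver by the authors' deposited table. Cbx7 (adjusted p = 0.0497) and Rbbp4 (0.0494) were close to the threshold by the authors' deposited table.

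A further list held 13 compared genes that read DNA methylation or have been linked to its turnover. Of these, 4 were called in the male and 1 in the female direction. This is 38.5% in all, a coarse share of 13 genes, beside 17.4% of all compared genes. Tdg, the glycosylase that removes oxidised methylcytosine downstream of the TET enzymes, was 2.75-fold higher in female liver by the authors' deposited table (adjusted p = 0.00198), at a low log2 RPKM of -1.37 in male and -0.02 in female liver. Gadd45a (2.50-fold), Apobec1 (1.78-fold), Zbtb33 (1.36-fold) and Mbd1 (1.32-fold) were higher in male liver by the authors' deposited table. The list median was 0.01. Among Tet2, Dnmt3b, Dnmt1 and the genes of this list, calls were thus made in both directions. Whether Gadd45a and Apobec1 act on DNA methylation in liver was not tested.

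**Figure D4:**
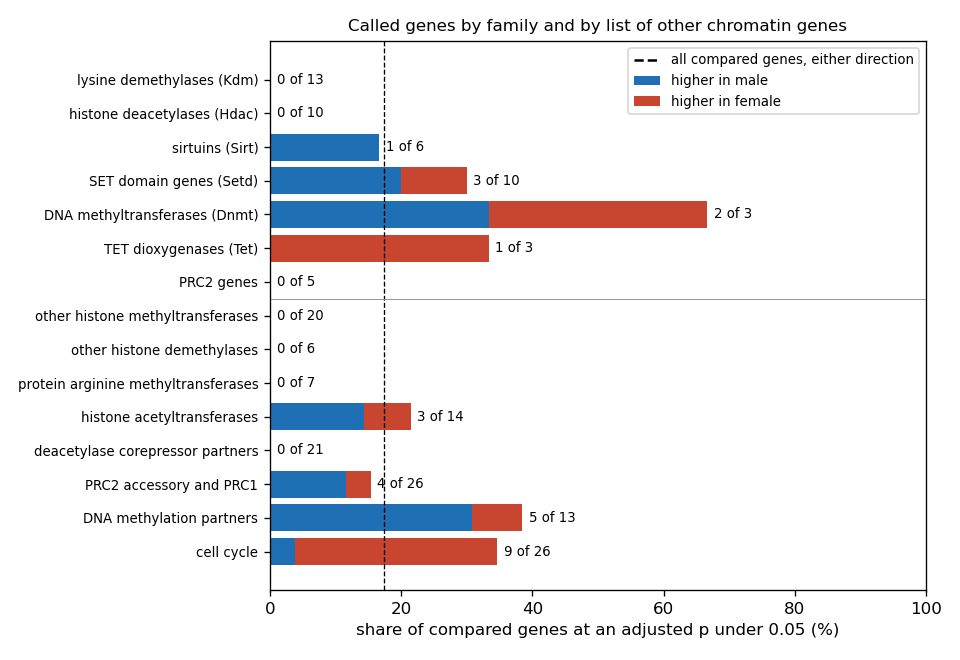
Share of compared genes at an adjusted p under 0.05 (horizontal axis, percent), for the 7 member families (above the line) and 8 lists of other genes (below), split into higher in male (blue) and higher in female liver (red); the dashed line is the 17.4% over all compared genes. Families of 3 to 13 genes give coarse shares, and Kdm, Hdac and PRC2 genes show no call.

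Dnmt1 and Ezh2 are known to rise in dividing cells, so cell cycle genes are given beside them. Of 26 such genes 8 were called in the female and 1 in the male direction by the authors' deposited table. This is 34.6% in all, beside 17.4% of all compared genes. Their median log2 ratio was -0.62, and levels were at most 2.03 on the log2 RPKM scale. Of the 26 ratios 21 were below 0 and 5 above. Mki67 was 2.42-fold and Mcm6 1.75-fold higher in female liver by the authors' deposited table. Ccne1, the call in the male direction, was 3.38-fold higher in male liver by the authors' deposited table (adjusted p = 0.00614). Dnmt1 was also higher in male liver. Ezh2, with a log2 ratio of -0.15, lay on the female side without a call (adjusted p = 0.539 by the same table). Whether Dnmt1 or Ezh2 moves with these genes was not tested. Uhrf1, the partner that brings Dnmt1 to replicated DNA, was near the floor at -4.32 in male and -2.71 in female liver and was not called by the authors' deposited table (adjusted p = 0.297).

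Bulk liver RNA cannot tell fewer cells of a type from less RNA per cell. Hepatocyte markers dominated as the label says, with a summed level of 60470 RPKM in male and 72570 RPKM in female liver over 8 genes. Without Alb, the sum was 31445 RPKM in male and 25647 RPKM in female liver. Of the 8 genes, Apoa1, Apob and Serpina1c were called in the male and Alb in the female direction by the authors' deposited table, with a median log2 ratio of 0.17. Over all compared genes 17.4% were called, 7.21% in the male and 10.2% in the female direction. Kupffer cell markers summed to 212 RPKM in male and 276 RPKM in female liver, with 6 of 10 called, all higher in female liver by the authors' deposited table. Stellate cell markers summed to 101 and 143 RPKM with 5 of 8 called, also higher in female liver. Most of these sums was Dcn, at 72.5 RPKM in male and 96.6 RPKM in female liver. Des and Acta2 lay on the male side without a call (log2 ratios of 0.45 and 0.17). Sinusoidal endothelial markers summed to 121 and 138 RPKM with 1 of 8 called. T and B cell markers were low, at 5.46 RPKM in male and 4.5 RPKM in female liver over 10 genes with 1 call (Cd4, higher in male liver). Cd4 itself had 1.18 RPKM in male and 0.373 RPKM in female liver. Of the 10 ratios 5 were above 0 and 5 below, so the sums show no common direction. Cholangiocyte markers summed to 46.5 and 31.8 RPKM with 1 call each way among 5 compared genes, and Muc1 was at the floor in male liver. Without Spp1, which was called in the male direction, the sums were 2.61 RPKM in male and 3.88 RPKM in female liver, and the list's median log2 ratio was -0.23. No other marker of these lists was at the floor in either sex. The part of these cells in the levels of Setd4, Dnmt3b and Tet2, which were also higher in female liver, was not tested.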

How the data were processed

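RNA of 4 pooled libraries, 2 per sex, was described from a single table of 21827 gene entries. Per the file headers, the authors deposited log2 RPKM per sex, a normalized log2 ratio of male over female, the same as a linear ratio, a signed fold change as a score, an adjusted p-value and a flag for expressed genes. Bowtie, edgeR and mm9 are named in the submitters' processing notes, without roles or versions; the sources used here do not state how p was adjusted or whether counting used strand. The planned test on counts could not be run on such values, so the fallback in the design was used: the authors' adjusted p-value under 0.05 with the direction of their ratio.

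Left out were genes with a ratio of 1 and the floor value in each sex (6590) or in 1 sex (1460, at whole multiples of the floor within 0.3% in the other), and 14 without a level, which leaves 13763 compared genes. The adjusted p of 0.026 that Dnmt3l and the other floor genes share was not used. Implied reads take the floor as a count of 1 added to no reads, and this 1 was subtracted from each gene. Transcript lengths by RefSeq accession were taken from GENCODE M21 (lengths only, another build). Of 4668 floor genes with a length, 74.1% lay within 2% of the median. The median gives 11.2 M reads for male and 14.7 M for female liver. Exact (Clopper-Pearson) 95% intervals cover counting error alone and are scaled by implied depth, not by the authors' normalization. Recovery of reads from rounded levels and coverage of the exact intervals were tested on simulated counts with depth and length given. The depth read from the floor, the lengths from another build and the sorting of floor genes were not part of that test. Python 3.11.15, pandas 2.3.3, scipy 1.17.1 and matplotlib 3.10.9 were used. Coordinates of genes are those of the table (mm9, start made 1-based); promoter sequences and spans are from RefSeq (GRCm38.p6), matched by symbol.

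The members, lists and rules were chosen with earlier results of these data known. Every member is named. Levels, fold and adjusted p are given for called members and for DNA methyltransferase, TET and PRC2 genes above the floor. In each other family they are given for the 2 of highest level and the 2 with the largest ratio each way among expressed members. Other genes are named where called, at most 4 per list, or where they neighbour a called member. The DNA methylation list departs from this limit, with all 5 called genes named. In the cell cycle list, Mki67 and Mcm6 were named though other called genes had larger ratios. Uhrf1, Ncor1, Sin3a, Chd4, Ccne1, Dcn, Des and Acta2 were named after their values were seen. Marker sums without Alb or Spp1 were added after seeing the data.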

Additional observations from a re-analysis of the deposited data

How the results depend on the processing

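No paired analysis was possible because the table has no column per pool, and for the same reason no pool was left out and no count model (DESeq2 or other size factors) was run. At an adjusted p under 0.01, 1 member was higher in male liver in place of 4, and 2 in female liver in place of 3; fewer genes pass a stricter threshold by construction. Over liver-expressed members, and with the direction taken from the plain difference of log2 RPKM, the counts stayed at 4 and 3, and with at least 1.5-fold they were 3 and 2. The median log2 ratio of 0.020 was 0.044 by the plain difference, 0.052 over expressed members, 0.044 after subtracting the median of all compared genes (-0.024) and 0.042 with a pseudocount of 0.5 RPKM. No called member changed sign by the plain difference, and the largest shift among them was 0.103 (log2); of all 50 members, 2 changed sign. Low reads limit Tet1, Kdm4d, Hdac9, Sirt6 and Hdac10.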
